A study of Mus musculus with 8 samples.

Results

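The genes described here encode the membrane repair protein Trim72 (also called MG53) and 8 of its partners at the muscle cell surface, in whole hearts of mice at postnatal day 1 (P1) and postnatal day 7 (P7). The 9 genes are Trim72, Dysf, Cav3, Dmd, Utrn, Dag1, Sgca, Sgcb and Sgcd, out of 39614 loci that carry a gene symbol and 80155 loci in all. Trim72 was chosen by its measured FPKM, which earlier results of these data had shown to be much higher in P7 than in P1, so its own difference is a description and carries no test. The other 8 genes were taken for their known roles beside it, and the question was whether they followed. RNA-seq was made from 4 hearts at each stage, with 1 library per heart, from male Hsd:ICR(CD-1) mice, an outbred stock. The atrial appendages had been cut away, and the rest of the heart was used whole. Levels are in FPKM, which relates the fragments sequenced from a locus to its length and to the depth of the library, so that they can be set side by side between genes.

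Contraction can tear the surface membrane of a muscle cell. Trim72 is a muscle protein that gathers vesicles at a tear, dysferlin (Dysf) is a calcium-binding protein of these vesicles that takes part in their fusion with the membrane, and caveolin 3 (Cav3) is the muscle form of the protein that shapes caveolae, small pits of the surface membrane. The dystrophin complex is a mechanical link from the actin skeleton to the matrix outside the cell. Dystrophin (Dmd) binds actin inside, dystroglycan (Dag1) spans the membrane and binds laminin, the sarcoglycans (among them Sgca, Sgcb and Sgcd) sit beside dystroglycan, and utrophin (Utrn) is the close relative of dystrophin that is found in many cell types. Loss of dystrophin, a sarcoglycan, dysferlin or caveolin 3 leads to muscle disease, in several of these also of the heart.

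The promoters of 4 of these genes are shown because their RNA moved in different ways: in Trim72, Sgca and Dag1 all P7 hearts lay above all P1 hearts, as in 17.3% of tested annotated loci, and in Dmd they did not. Each window holds 250 bases before and 50 bases after the RefSeq start of the gene, in build GRCm38.p6, written 5′ to 3′ on the strand of the gene, and capitals mark E-boxes (CANNTG on either strand), the letters read by MyoD-type and other basic helix-loop-helix factors.
Trim72, chr7:128004128-128004427, plus strand: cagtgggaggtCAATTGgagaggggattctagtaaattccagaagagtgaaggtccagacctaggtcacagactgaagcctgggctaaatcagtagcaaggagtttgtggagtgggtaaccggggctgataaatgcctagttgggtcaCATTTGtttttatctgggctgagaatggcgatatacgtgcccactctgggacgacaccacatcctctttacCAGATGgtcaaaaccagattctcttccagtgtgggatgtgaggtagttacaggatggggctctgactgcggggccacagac
Sgca, chr11:94976278-94976577, minus strand: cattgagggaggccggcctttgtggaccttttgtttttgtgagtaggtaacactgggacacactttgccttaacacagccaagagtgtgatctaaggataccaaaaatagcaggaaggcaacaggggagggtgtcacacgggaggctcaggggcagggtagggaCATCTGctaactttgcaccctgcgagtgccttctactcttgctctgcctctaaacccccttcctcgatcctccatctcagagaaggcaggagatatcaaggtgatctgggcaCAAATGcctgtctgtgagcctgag
Dag1, chr9:108263909-108264208, minus strand: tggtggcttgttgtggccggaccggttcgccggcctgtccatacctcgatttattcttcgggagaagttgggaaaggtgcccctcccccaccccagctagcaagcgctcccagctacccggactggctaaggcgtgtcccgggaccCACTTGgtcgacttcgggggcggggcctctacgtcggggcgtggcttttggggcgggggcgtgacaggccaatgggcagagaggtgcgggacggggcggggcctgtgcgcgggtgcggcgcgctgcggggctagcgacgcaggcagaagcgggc
Dmd, chrX:82948620-82948919, plus strand: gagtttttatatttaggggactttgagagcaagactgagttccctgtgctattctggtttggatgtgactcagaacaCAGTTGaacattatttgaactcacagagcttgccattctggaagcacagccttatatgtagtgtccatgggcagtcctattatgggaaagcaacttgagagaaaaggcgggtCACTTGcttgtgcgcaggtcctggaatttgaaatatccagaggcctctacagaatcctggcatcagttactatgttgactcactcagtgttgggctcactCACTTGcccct
The Trim72 window held 3 E-boxes, which begin 239, 102 and 31 bases before the start. It also held 2 copies of GATAA (either strand), at 123 and 93 bases, which do not overlap the E-boxes. The Sgca window held 2 E-boxes and the Dag1 window 1. The Dmd window, which is that of the first of its 2 starts in the table, held 3 E-boxes, 1 CArG box and 1 MEF2 box, the last overlapping a TATAAA. These matches are letters only. An E-box occurred in 72.3% of the 32851 mouse promoter windows of this length and GATAA in 25.4%, whereas TATAAA occurred in 13.6%, the MEF2 box in 1.86% and the CArG box in 1.63%. The M-CAT element CATTCC, present in 14.7%, was in none of the 4 windows. Of the motifs searched, the windows of the 3 genes with separate stages shared only the E-box, which most promoters hold and which Dmd also had.

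Each heart gave a value for every locus, and 20269 to 28662 loci per heart reached an FPKM of 1, the highest number being that of P1 replicate 3. The share of all FPKM in annotated loci differed widely between hearts. It ran from 40.1% (replicate 2) to 53.9% (replicate 4) in P1 and from 27.3% (replicate 4) to 66.9% (replicate 3) in P7. The files hold no fragment counts, but low values rise in even steps, from which about 40 to 1100 fragments per heart can be estimated behind Trim72, 220 to 1400 behind Sgca and 19200 to 34900 behind Dmd. Cardiomyocyte markers were abundant, with summed FPKM of 18185 to 33218 in P1 and 22299 to 35602 in P7 over 8 genes, none of which passed the test. The atrial appendages had been removed, and 4 genes listed as markers of atrial muscle summed to 3900 to 5055 in P1 and 3898 to 5289 in P7. How much atrial muscle the samples held was not tested. Markers of skeletal muscle summed to 1.91 to 5.40 in P1 and 1.18 to 2.68 in P7, and 6 of these 8 genes stayed under 1 FPKM in every heart, among them the defining factors Myod1 and Pax7. Of 8 fibroblast markers 5 passed the test as higher in P7. Over these 8 genes the P1 hearts summed to 859.0 to 1760 FPKM and the P7 hearts to 1851 to 2338. Col1a2 (log2 fold change 0.91), Pdgfra (0.48) and Postn (-0.19) did not pass, and their stages overlapped. Of endothelial markers 2 of 6 passed as higher, and of brown fat markers 1 of 2. The endothelial marker Emcn did not pass, but all its P7 hearts lay below all its P1 hearts (log2 fold change -0.43). Of smooth muscle and pericyte markers 1 of 6 was higher and 1 lower, beside 7.74% higher and 0.401% lower among annotated loci. No tested marker of atrial muscle (4), leukocytes (4), red cells (4), nerve and Schwann cells (2) or lung (1) passed. Whether the mix of cell types differed was not tested. Its part in the results below was not tested either, beyond the values given relative to cardiomyocyte markers. In RNA of a whole heart, fewer cells of a type and less RNA per cell cannot be told apart.

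Trim72 lies on chromosome 7 (128002849 to 128011707 of GRCm38). Its FPKM was 2.48, 1.96, 1.02 and 4.97 in P1 replicates 1 to 4 and 19.8, 10.5, 35.4 and 16.6 in P7 replicates 1 to 4. The lowest P7 heart was thus above the highest P1 heart, while the hearts of 1 stage also differed widely among themselves. The P7 mean of 20.6 ± 10.6 (SD, n = 4) was 7.90 times the P1 mean of 2.61 ± 1.68 (SD, n = 4). On the log2(FPKM + 1) scale, which understates the change of low genes, the difference was 2.57 with a standard error of 0.36, and 8 of 17960 tested annotated loci had a larger one. The spread was also the widest of the 9 genes: the coefficient of variation was 64.7% in P1 and 51.6% in P7, whereas that of Dag1 was 10.9% and 9.96%. The locus in the files begins before the annotated gene (128003949) and overlaps the antisense gene Gm15533. Whether fragments were counted by strand is not given in the sources used here, so fragments of the antisense gene cannot be told apart from those of Trim72.

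Of the 8 partners of Trim72, Sgca and Dag1 were also higher in P7. Dysf, Cav3, Utrn, Sgcb and Sgcd gave no detectable difference, and the mean of Dmd was lower in P7 by an amount that did not pass the test. Differential expression (DEG) was called with limma on log2(FPKM + 1) over all tested loci, where the p adjusted by Benjamini-Hochberg was under 0.05 and the means of the stages, in FPKM, differed 1.5 times or more. By this rule 2 of the 8 partners were higher and 0 lower, against 8.14% of annotated loci called in either direction, 7.74% higher and 0.401% lower. The stages did not overlap, with P7 above, in the same 2 partners and, with P7 below, in 0, against 17.3% and 2.69% of annotated loci. The median log2 fold change of the 8 partners was 0.24, near the 0.19 of all annotated loci. One more of the 8, Dysf, had an unadjusted p under 0.05 (0.029), and it did not pass after adjustment.

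**Figure D1:**
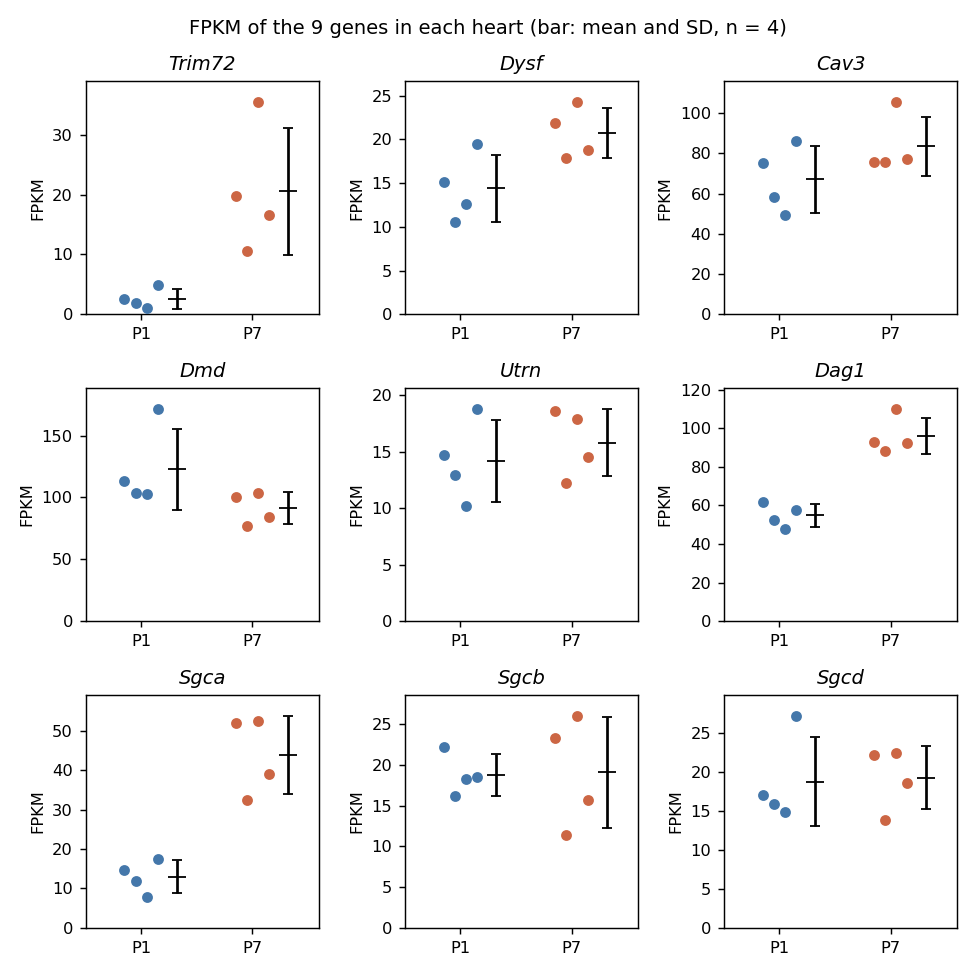
FPKM of the 9 genes in each heart, 1 panel per gene with its own axis from 0; points are hearts (P1 left, P7 right) and the bar beside them is the mean with its SD (n = 4). Trim72, Sgca and Dag1 have all 4 P7 hearts above all P1 hearts, while the stages overlap in the other 6 genes.

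Alpha-sarcoglycan (Sgca, chromosome 11, 94962791 to 94976412) is the sarcoglycan made mainly in striated muscle. Its FPKM was 14.6, 11.9, 7.85 and 17.5 in the P1 hearts and 51.8, 32.4, 52.3 and 39.0 in the P7 hearts, so that the stages did not overlap. The mean rose from 13.0 ± 4.13 to 43.9 ± 9.84 (SD, n = 4 each), a ratio of 3.38. The log2 fold change was 1.71 (standard error 0.25, 95% interval 1.16 to 2.25, limma adjusted p = 0.00694), and 75 annotated loci had a larger one. The call held in all 18 alternative fits over all loci, with adjusted p between 0.000701 and 0.0334. Hils1, a gene on the opposite strand, lies inside Sgca, and its fragments cannot be told apart from those of Sgca without knowing how strand was used.

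Neither Sgcb nor Sgcd, nor the epsilon form, passed the test. Beta-sarcoglycan (Sgcb, chromosome 5, 73632749 to 73647751), which forms the core of the complex with delta-sarcoglycan, had FPKM of 22.2, 16.1, 18.2 and 18.5 in P1 and 23.3, 11.3, 26.0 and 15.6 in P7. The P7 hearts lay on both sides of the P1 hearts, and the log2 fold change was -0.04 (95% interval -0.57 to 0.50, adjusted p = 0.939). Delta-sarcoglycan (Sgcd, chromosome 11, 46896253 to 47988969) had FPKM of 17.0, 15.8, 14.8 and 27.1 in P1 and 22.1, 13.8, 22.4 and 18.6 in P7. Here too the stages overlapped, with a log2 fold change of 0.06 (95% interval -0.44 to 0.55, adjusted p = 0.896). Epsilon-sarcoglycan (Sgce), the broadly expressed relative of Sgca, had 15.4 to 21.3 FPKM in P1 and 22.1 to 28.0 in P7, without overlap, with a log2 fold change of 0.49 (adjusted p = 0.170).

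Dystroglycan (Dag1, chromosome 9, 108204647 to 108275006) is the laminin receptor at the centre of the complex. Its FPKM was 61.7, 52.6, 47.9 and 57.5 in the P1 hearts and 93.0, 88.4, 110 and 92.3 in the P7 hearts, the tightest of the 9 genes within a stage. The mean rose from 54.9 ± 5.99 to 95.9 ± 9.55 (SD, n = 4 each), a ratio of 1.75, and the log2 fold change was 0.79 (standard error 0.18, 95% interval 0.41 to 1.18, adjusted p = 0.0322). This call was less firm than that of Sgca: 6 of the 18 alternative fits kept it. Without P1 replicate 1, 2 or 3 the log2 fold change was 0.85, 0.78 or 0.73 and the adjusted p 0.0602, 0.120 or 0.0726, and without P7 replicate 1, 3 or 4 it was 0.81, 0.73 or 0.81 with an adjusted p of 0.0876, 0.0879 or 0.0801. After GC correction the log2 fold change was 0.66 (adjusted p = 0.0891). Calls over all annotated loci also fell in these fits. They numbered 820, 167 and 425 without P1 replicate 1, 2 and 3, against 1462 with all hearts. Without P7 replicate 1, 3 and 4 the number was 298, 278 and 725, and after GC correction 370.

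Dystrophin (Dmd, chromosome X, 82948847 to 85206141) had FPKM of 113, 104, 103 and 172 in the P1 hearts and 101, 76.9, 104 and 84.2 in the P7 hearts. The highest P7 value was just above the lowest P1 value, and P1 replicate 4 stood far above the rest. The log2 fold change was -0.40 (95% interval -0.87 to 0.07, adjusted p = 0.341), with 92.0% of annotated loci above it. Scaled to the median of annotated loci within each heart, which moved the median of all annotated loci by -0.19, Dmd passed as lower (-0.64, adjusted p = 0.0140), and after quantile normalization as well (-0.61, adjusted p = 0.0364). After GC correction it was -0.13 (adjusted p = 0.734). The locus sums the transcripts of all Dmd starts, long and short forms alike. Utrophin (Utrn, chromosome 10, 12379954 to 12869465) had 14.8, 13.0, 10.2 and 18.8 FPKM in P1 and 18.6, 12.2, 17.9 and 14.5 in P7. Its log2 fold change of 0.16 (95% interval -0.31 to 0.63, adjusted p = 0.663) was close to the median of annotated loci, and under median-ratio scaling it was -0.07.

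The partners that act with Trim72 at a tear did not pass the test. Dysferlin (Dysf, chromosome 6, 84008590 to 84213496) had FPKM of 15.1, 10.5, 12.6 and 19.4 in P1 and 21.9, 17.9, 24.2 and 18.8 in P7. Of the P7 hearts 2 were above the highest P1 heart. The log2 fold change was 0.52 (95% interval 0.06 to 0.97, adjusted p = 0.213), and 2 antisense genes, Gm33024 and Gm15475, lie inside the gene. Caveolin 3 (Cav3, chromosome 6, 112459501 to 112472871) had FPKM of 75.2, 58.1, 49.3 and 86.3 in P1 and 75.9, 75.6, 105 and 77.4 in P7. The P1 hearts spread widely and 3 of the P7 hearts lay within their range, with a log2 fold change of 0.33 (95% interval -0.15 to 0.80, adjusted p = 0.422).

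The order of the levels changed between the stages. In P1 the order by mean FPKM was Dmd (123), Cav3 (67.2), Dag1 (54.9), Sgcb (18.8), Sgcd (18.7), Dysf (14.4), Utrn (14.2), Sgca (13.0) and Trim72 (2.61). Dmd stood clear of Cav3, Dag1 of Sgcb and Sgca of Trim72, and the ranges of the other neighbours overlapped. In P7 the order was Dag1 (95.9), Dmd (91.4), Cav3 (83.6), Sgca (43.9), Dysf (20.7), Trim72 (20.6), Sgcd (19.2), Sgcb (19.1) and Utrn (15.8). There the first 3 overlapped, Sgca stood clear of Cav3 above it and of Dysf below it, and the last 5 overlapped from neighbour to neighbour. Trim72 was below every partner in all P1 hearts. In P7 it ranged more widely than its neighbours in this order, from 10.5 in replicate 2, below every partner, to 35.4 in replicate 3, above Dysf, Sgcd, Sgcb and Utrn and within the range of Sgca.

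The hearts also differed within a stage in a way that many of the 9 genes shared. P1 replicate 4 was the highest P1 heart in 7 of the 9 genes and P1 replicate 3 the lowest in 7, while P7 replicate 3 was the highest P7 heart in 8 and P7 replicate 2 the lowest in 9. The mean log2 FPKM of the 8 cardiomyocyte markers had the same extremes, 9.67 in P1 replicate 3 and 10.7 in P1 replicate 4, 10.1 in P7 replicate 2 and 10.9 in P7 replicate 3. The median-ratio scaling factors, taken over annotated loci, had the same extremes. They were 0.790 in P1 replicate 3, 1.14 in P1 replicate 4, 0.929 in P7 replicate 2 and 1.25 in P7 replicate 3. What gave this shared order was not tested. Fits under median-ratio and quantile scaling are given for single genes and in the closing section. Each gene was also taken relative to the cardiomyocyte markers within its heart, a measure added after the data were seen. Relative to the markers Trim72 differed by 2.80 on the log2 scale, Sgca by 1.52, Dag1 by 0.54 and Dmd by -0.67. These values are on log2 FPKM with nothing added, so they cannot be set directly beside those on log2(FPKM + 1). With 0.1 added in place of 1, the Trim72 difference without the markers was 3.005. The marker mean was itself 0.27 higher in P7. In Trim72, which was chosen for its rise, Sgca, Dag1 and Dmd the stages did not overlap. The share of all annotated loci apart in this measure was not computed. For Sgca, Dag1 and Dmd the exact permutation test gave p = 0.0286, the smallest that 4 against 4 hearts allow, which did not pass after adjustment for the 8 genes tested. Dysf (0.28), Cav3 (0.07), Utrn (-0.09), Sgcb (-0.31) and Sgcd (-0.21) overlapped.

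GC content moved with the stage difference over all annotated loci. In the quintile of annotated loci with the lowest transcript GC content the median log2 fold change was -0.04 and 1.03% were called higher. In the quintile with the highest, from 54.8% GC, it was 0.62 and 26.1% were called higher. The transcripts of Trim72 (59.1%), Sgca (56.7%), Cav3 (56.6%) and Dysf (55.5%) fall in that highest quintile, Dag1 (52.8%) in the one below, and Utrn (47.9%), Sgcb (43.9%), Dmd (41.5%) and Sgcd (37.7%) are lower. With the trend of each heart on GC content taken out, the log2 fold change was 2.14 for Trim72 and 1.36 for Sgca, which still passed (adjusted p = 0.0286). It was 0.22 for Dysf, -0.01 for Cav3, 0.27 for Utrn, 0.19 for Sgcb and 0.33 for Sgcd, none of which passed.

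**Figure D2:**
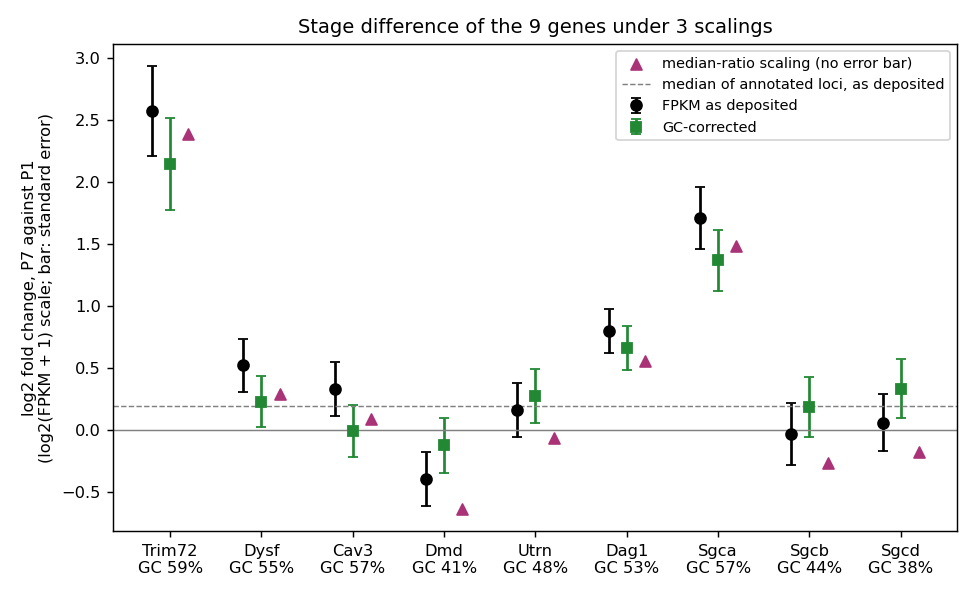
Log2 fold change of the 9 genes, P7 against P1, with the FPKM as deposited (circles), after GC correction (squares, both with the standard error) and after median-ratio scaling (triangles); the GC content of each transcript stands below its name. Trim72 and Sgca stand highest under all 3 scalings, and Dmd lies between -0.64 and -0.13.

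Ratios of 2 genes within a heart do not depend on how hearts are scaled to each other. The share of all pairs of loci whose stages are apart in this measure was not computed. The ratio of dystrophin to each of the genes it was set against was lower in all P7 hearts than in all P1 hearts. Dmd was 7.66, 7.97, 10.1 and 9.13 times the level of Utrn in the P1 hearts and 5.42, 6.30, 5.77 and 5.80 times in the P7 hearts. The difference of the mean log2 ratio was -0.58. Dmd was 1.83, 1.97, 2.15 and 2.98 times the level of Dag1 in the P1 hearts and 1.08, 0.870, 0.942 and 0.913 times in the P7 hearts, a difference of -1.21 on the log2 scale. With the FPKM as deposited, dystrophin RNA thus went from well above to about the level of dystroglycan RNA. After GC correction this log2 difference was -0.79.

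The ratios of Sgca to Sgcb and Sgce were higher in all P7 hearts than in all P1 hearts. It was 0.658, 0.735, 0.431 and 0.950 times the level of Sgcb in the P1 hearts and 2.22, 2.86, 2.01 and 2.49 times in the P7 hearts, so that below Sgcb in every P1 heart turned into above it in every P7 heart (log2 difference 1.83). Sgca against Sgce, its broadly expressed relative, went from 0.509 to 0.824 in P1 to 1.47 to 1.97 in P7 (log2 difference 1.28). Sgcb and Sgcd kept near 1 to 1, with ratios of 0.681 to 1.31 in P1 and 0.819 to 1.16 in P7 (log2 difference -0.10). The muscle genes Dysf and Cav3 gave no detectable shift against their relatives Myof (log2 difference 0.43) and Cav1 (0.01).

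In an exact two-sided permutation test over the 70 ways to assign 4 of the 8 hearts to a stage, Dmd/Utrn, Dmd/Dag1, Sgca/Sgcb and Sgca/Sgce each gave p = 0.0286, the smallest possible, and 0.0457 after Benjamini-Hochberg adjustment over the 8 pairs tested, of which 7 are reported. Over the 7 reported pairs alone the adjusted p of these 4 would be 0.050, which is not under the threshold, so that passing depends on a pair not reported here. Dysf/Myof gave 0.143 (adjusted 0.190), Sgcb/Sgcd 0.686 (adjusted 0.784) and Cav3/Cav1 0.943 (adjusted 0.943). Pairs that share a gene are not independent, and with 1 heart left out the test cannot go below 0.0571. After GC correction, added for the ratios after the data were seen, the first 4 pairs kept their direction with differences of -0.40, -0.79, 1.18 and 0.60 in the same order. Cav3/Cav1 then turned to -0.59 (exact permutation test, adjusted p = 0.0381).

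**Figure D3:**
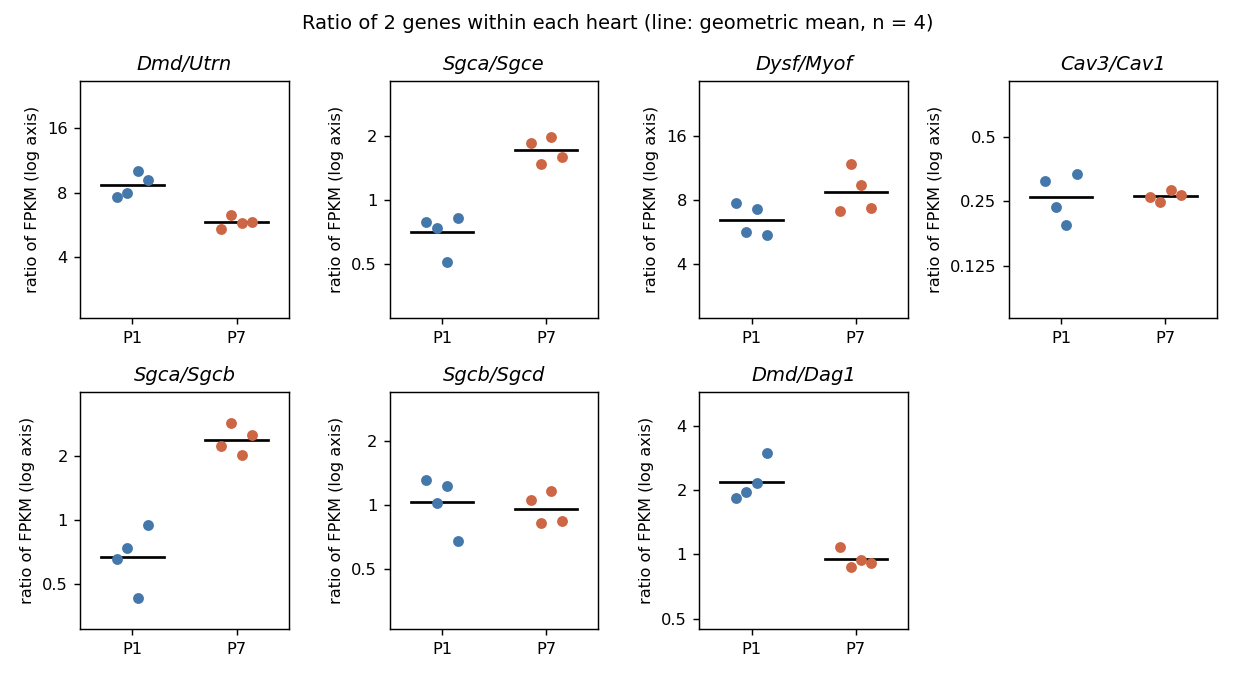
Ratio of the FPKM of 2 genes within each heart, 1 panel per pair on a log axis of the same span; points are hearts (P1 left, P7 right) and the line is the geometric mean of 4. The stages are apart in Dmd/Utrn, Sgca/Sgce, Sgca/Sgcb and Dmd/Dag1 and overlap in the other 3 pairs. The share of all pairs of loci that are apart was not computed.

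Ratios with Trim72 are given without a test. Trim72 was 0.0811 to 0.255 times the level of Dysf in P1 and 0.586 to 1.46 times in P7, 0.0207 to 0.0575 and 0.139 to 0.336 times that of Cav3, and 0.130 to 0.283 and 0.324 to 0.677 times that of Sgca. Trim72 was chosen for its rise, so higher ratios in P7 follow from that choice and are no separate result. Against each of the 8 partners every P7 heart had a higher ratio than every P1 heart. The difference was smallest against Sgca (1.28 on the log2 scale) and largest against Dmd (3.47).

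The profile of Trim72 over the 8 hearts was compared with those of other loci. Of 8685 annotated loci of 1 symbol with a mean FPKM of at least 5, those whose centred log2(FPKM + 1) values over the 8 hearts were nearest to Trim72 were Ankrd23, a muscle ankyrin repeat protein bound to titin, at a root mean square distance of 0.286, Twf2, an actin-binding twinfilin, at 0.364, AL627077.2 at 0.412, Adck3, a kinase-like protein of coenzyme Q synthesis, at 0.431, and Itga7, a laminin-binding integrin chain of muscle, at 0.445. Ankrd23 went from 5.76 to 13.4 FPKM in P1 to 31.1 to 75.1 in P7. Like Trim72, all of these nearest loci had their lowest heart in P1 replicate 3 and their highest in P7 replicate 3, and so did Sgca. The cardiomyocyte marker mean and the median-ratio scaling factors had their lowest and highest values in the same hearts. Of the partners, Sgca came closest (0.527, place 15). Dag1 (1.01, place 1414) and Dysf (1.10, place 2349) were far behind, and Dmd was near the end of the list (1.53, place 7927). These places describe 8 hearts that share their stage and scaling.

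**Figure D4:**
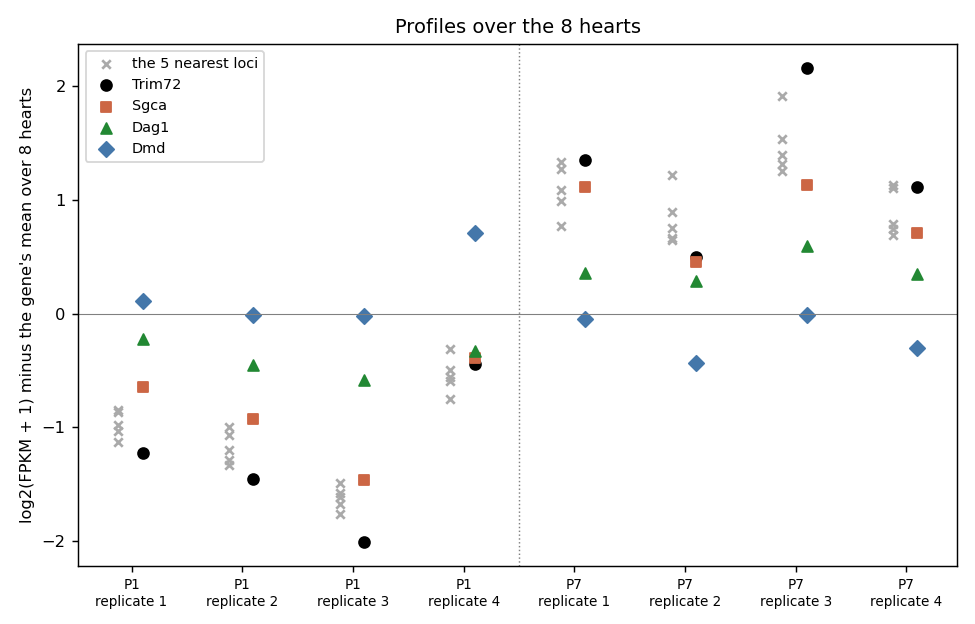
Log2(FPKM + 1) of each gene minus its own mean over the 8 hearts (vertical axis), by heart (horizontal axis), for Trim72, Sgca, Dag1, Dmd and the 5 loci nearest to Trim72 (grey crosses). Sgca and the 5 nearest loci lie low in all P1 hearts and high in all P7 hearts as Trim72 does, while Dag1 moves less and Dmd is highest in P1 replicate 4.

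Of 22 other genes of membrane repair 21 were tested, 6 were higher in P7, 0 lower and 15 did not pass, beside 7.74% higher and 0.401% lower among all annotated loci, and the median log2 fold change was 0.51. Those that rose were Capn1 (2.55 to 8.68 FPKM, log2 fold change 1.47) and Capns1 (43.7 to 91.9, 1.10), the large and small chains of the protease calpain, Ehd1 (16.6 to 47.6, 1.46) and Ehd2 (15.1 to 30.2, 0.98), which bend membranes during vesicle traffic, Bin1 (2.70 to 6.88, 1.10), which shapes the transverse tubules, and Anxa7 (15.7 to 31.7, 0.99), a calcium-binding annexin. The adjusted p of these 6 lay between 0.006 and 0.032. The lowest value was that of Anxa1, with a log2 fold change of -0.31 (adjusted p = 0.533), and Myof, the relative of dysferlin, was at 0.08. Left out in turn, P1 replicates 1 to 4 gave 3, 1, 3 and 9 genes higher, and P7 replicates 1 to 4 gave 3, 6, 2 and 3. Over all annotated loci the same fits called 791, 156, 395 and 2720 higher, and 279, 978, 256 and 689. With all hearts 1390 were called higher. After GC correction 2 of the 21 passed, Anxa7 and Capn1, beside 347 of 17960 annotated loci called higher. The counts below for the other lists, with a heart left out or after GC correction, come from these same fits.

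Of 8 genes of caveolae, all tested, 2 rose, beside 7.74% of annotated loci. They were Ptrf (cavin 1), which coats caveolae, from 55.9 to 109 FPKM (log2 fold change 0.94, adjusted p = 0.026), and Pacsin3, a membrane-bending protein found at them in muscle, from 18.1 to 54.6 (1.72, adjusted p = 0.036), although its stages overlapped. The median was 0.45 and the lowest value was that of Cav2 (0.15). Cav1, the caveolin of endothelium and other cells, went from 250.2 to 314 FPKM (0.32, adjusted p = 0.374). The count was 3 without P1 replicate 4, 2 without P7 replicate 2 and 0 without any one of the other 6 hearts, and 0 after GC correction.

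Of 13 further genes of the dystrophin complex 10 were tested, and the others, Sgcz, Sntg1 and Nos1, stayed under 1 FPKM in every heart. Plec (plectin), which ties dystrophin and dystroglycan to the cell skeleton, was the 1 gene that rose, a share near the 7.74% of annotated loci (19.1 to 38.7 FPKM, log2 fold change 1.07, adjusted p = 0.046), at a locus that also holds Parp10. The lowest was Sntb1, a syntrophin that binds dystrophin, at -0.45 (adjusted p = 0.247), with its P7 hearts all below its P1 hearts. The median was 0.30. The count was 0 without any one heart except P1 replicate 4, without which it was 2, and 0 after GC correction. Under median-ratio scaling 3 passed, Plec as higher, and Sntb1 (-0.69, adjusted p = 0.00791) and Ank3 (-0.63, adjusted p = 0.0151), an ankyrin that helps to place dystrophin at the membrane, as lower.

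Of 10 matrix ligands of dystroglycan 1 rose, again near the 7.74% of annotated loci. It was Hspg2 (perlecan), from 38.0 to 72.7 FPKM (log2 fold change 0.97, adjusted p = 0.047). Lamb2, a laminin chain, had a larger value of 1.03 (adjusted p = 0.075), Lama4 the smallest of 0.04, and the median was 0.48. Without P1 replicate 4 the count was 3, and without any one of the other hearts or after GC correction 0. Of 16 genes that make the sugar chain by which dystroglycan holds laminin 15 were matched, 14 tested and 2 rose, beside 7.74% of annotated loci, with a median of 0.41. They were B3gnt1 (7.83 to 17.3 FPKM, 1.07) and Gtdc2 (1.17 to 3.09, 0.92), with adjusted p of 0.024 and 0.035. The lowest was B3galnt2 at -0.22 (adjusted p = 0.573). Without P1 replicates 1 to 4 in turn 1, 0, 0 and 3 passed, without P7 replicates 1 to 4 in turn 0, 1, 0 and 1, and after GC correction 1, B3gnt1.

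Of 9 genes of the integrin system, the other laminin receptor of muscle, 1 rose, near the 7.74% of annotated loci. It was Itga7, from 5.14 to 20.6 FPKM (log2 fold change 1.86, adjusted p = 0.006), and it stayed called with any 1 heart left out and after GC correction. Its FPKM was 5.19, 4.35, 2.98 and 8.02 in the P1 hearts and 21.2, 16.5, 26.9 and 17.7 in the P7 hearts, without overlap. The chain it pairs with, Itgb1, which is shared by many cell types, was at 0.19 (adjusted p = 0.570), Lims1 had the lowest value of -0.13, and the list median was 0.14. With the FPKM as deposited no gene of the 6 lists passed as lower, beside 0.401% of annotated loci. Under median-ratio scaling Sntb1 and Ank3 passed as lower. All 6 medians lay between 0.14 and 0.51, beside 0.19 for all annotated loci.

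**Figure D5:**
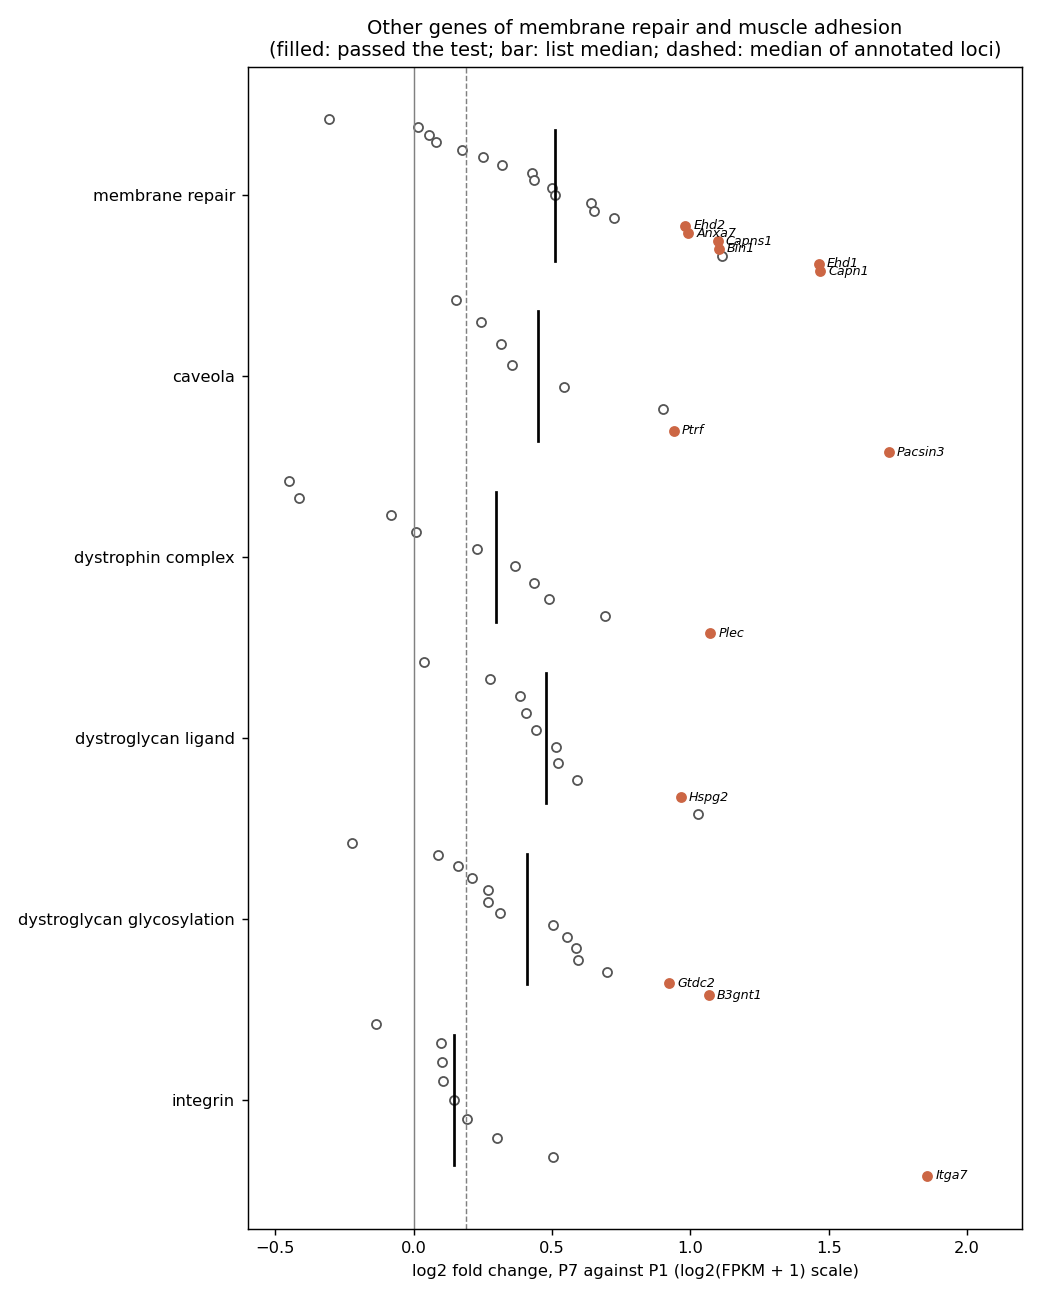
Log2 fold change, P7 against P1, of the tested genes of 6 lists beside the members (horizontal axis, points; filled and named where the test was passed), with the list median (bar) and the median of annotated loci (dashed, 0.19). Every filled point lies to the right, with Itga7 at 1.86 and Pacsin3 at 1.72 the farthest.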

How the data were processed

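Total RNA of whole hearts without atrial appendages (4 P1 and 4 P7 hearts of separate mice, 1 library each) was depleted of ribosomal RNA and sequenced in paired ends. The authors had the reads mapped to GRCm38 and summed over Ensembl-based loci by a service provider, and deposited FPKM per locus. The aligner, its version and the use of strand are not given in the sources used here. The files hold no counts, so fragments behind a value were estimated from the steps of low FPKM values. Locus starts count from 0 in the files and from 1 here.

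Symbols joined by commas were split and matched without regard to case, and each of the 9 genes had 1 locus. Loci that reached 1 FPKM in 1 or more hearts (43172, of which 17960 annotated) were compared on log2(FPKM + 1) with limma 3.58.1 in R 4.3.3 (lmFit, eBayes with a trend, no covariates, all 8 hearts), with Benjamini-Hochberg adjustment over all tested loci. Ratios within hearts were tested with an exact two-sided permutation test (scipy 1.17.1). GC correction subtracted from each heart a lowess (span 0.3) of its deviations on the GC content of the longest GENCODE transcript, known for 91.8% of tested annotated loci. Also tried were a pseudocount of 0.1, other filters, median-ratio and quantile scaling, a replicate block, sample weights, no trend and leaving out each heart; values relative to cardiomyocyte markers, GC-corrected ratios and an adjustment over the 7 reported pairs alone were added after the data were seen. Scripts were tested on simulated data. Promoters are from RefSeq (GRCm38.p6), where all 9 genes had a window.

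The genes, lists and markers were chosen with earlier results of these data known, so no list is independent evidence. Named are the 9 genes, the genes of the 7 reported pairs and, of each list, the genes that passed and those with the largest and smallest log2 fold change. Itgb1, Ank3, Sgcz, Sntg1 and Nos1 were named after their values were seen. Labels give a replicate number in each stage; deviations of hearts with the same number correlated at -0.0188, 0.122, -0.102 and -0.027, so the numbers were not taken as pairs. Some genes of the lists and 1 pair are not reported here, and the p-values of ratios are adjusted over all 8 pairs tested.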

Additional observations from a re-analysis of the deposited data

Results flagged for a closer look

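In 2 of the 32 groups of 4 values that were examined, 1 heart lay far from the other 3, where 1.6 such groups are expected at a rate of 1 in 20. For Cav3 in P7 it was replicate 3, with 105 FPKM beside 75.6 to 77.4 in the others, and the gap was 0.939 of the whole range of the group. For Dmd in P1 it was replicate 4, with 172 FPKM beside 103 to 113, a gap of 0.856 of the range. Without P1 replicate 4 the log2 fold change of Dmd was -0.23, with a limma adjusted p of 0.391.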

How the results depend on the processing

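The hearts number 4 per stage and the files hold no counts, so the intervals rest on the spread between hearts. In limma the spread of each locus is drawn toward a trend over all tested loci. The intervals of the partners thus have 12.6 degrees of freedom and do not rest on the hearts of 1 gene alone. Over all annotated loci 1462 were called, 95.1% of them higher; the count was 620 with no filter, 2573 with 1 FPKM required in all hearts, 2951 with sample weights, 941 without the trend, 370 after GC correction, and 167 to 2835 with 1 heart left out (167 without P1 replicate 2). Median-ratio scaling called 2005 (69.1% higher) and quantile normalization 1972 (69.8% higher). With the replicate number as a block 1052 were called, 383 with GC correction as well. Of the 8 partners 1 in place of 2 passed with no filter, with the replicate block, after GC correction and with both, and 1 to 2 with 1 heart left out. The one lost was Dag1: 0.79 with no filter (adjusted p = 0.0511), 0.79 with the replicate block (0.0909), 0.66 after GC correction and 0.66 with the block as well (0.213), and 0.73 to 0.85 with 1 heart left out. At 0.55 under median-ratio scaling and 0.56 after quantile normalization its adjusted p passed but its ratio was under 1.5. Dmd passed as lower under those scalings (-0.64 and -0.61). Relative to cardiomyocyte markers, Sgca (1.52) and Dag1 (0.54) did not pass the exact permutation test after adjustment (adjusted p = 0.0762). Their unadjusted p of 0.0286 in that test was the smallest that 4 against 4 hearts allow. Any complete separation of the stages gives this p, so the test cannot reflect the size of a difference beyond that. Summing loci with the same symbol gave no other value, since each member has 1.

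Adjusted over the 7 reported pairs alone, the 4 pairs that passed were at 0.050 and no longer passed. With the replicate block the exact permutation test of ratios cannot go below 0.125, so Dmd/Utrn (-0.58), Sgca/Sgce (1.28), Sgca/Sgcb (1.83) and Dmd/Dag1 (-1.21) could not pass; nor could they with 1 heart left out, at -0.64 to -0.50, 1.12 to 1.36, 1.62 to 2.00 and -1.30 to -1.06. With a pseudocount of 1 Dysf/Myof passed (0.44, adjusted p = 0.0381), and after GC correction Cav3/Cav1 turned to -0.59. For the lists, GC correction left 2 genes of membrane repair, 0 of caveolae, 0 of the dystrophin complex, 0 of the ligands and 1 of glycosylation; with 1 heart left out these counts ran from 1 to 9, 0 to 3, 0 to 2, 0 to 3 and 0 to 3. Median-ratio scaling gave 3 of the dystrophin complex and 2 ligands, and the replicate block 1 of caveolae, 1 of glycosylation and 0 ligands. The counts over all annotated loci, which also moved under these settings, are given above. What caused the changes between settings was not tested.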
